A study of Mus musculus with 6 samples.

Results

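The collagen genes were examined in ventricular tissue of 8-week-old mice whose hearts carry a cardiac-specific transgene for a constitutively active form of the kinase Akt (caAkt), set against wild-type mice of the same age. Total RNA was hybridised to 6 short-oligonucleotide arrays, 3 caAkt and 3 wild-type, and each value is a log2 signal per probe set. The sources used here name neither the promoter of the transgene, nor which Akt gene it encodes, nor the strain. Whether the arrays of a genotype stand for different animals is also unstated, so every p-value rests on array-to-array spread that could be technical. Members were all genes whose single symbol in the platform annotation is Col, a number, a, and a number, such as Col1a1. This gave 42 of 18193 genes, measured by 82 probe sets, and where a gene had several, the brightest on average over all 6 arrays stood for it. By collagen type, 11 were fibrillar (types I, II, III, V, XI, XXIV and XXVII), 6 encoded the type IV chains of basement membranes, and 25 were other collagens.

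Collagens are secreted proteins in which 3 chains wind into a triple helix. Fibrillar collagens assemble into the cross-striated fibrils that bear tension between cardiomyocytes, where types I and III are the major forms and type V sits inside the fibril and limits its width. Type IV forms a meshwork under endothelium and around each cardiomyocyte, type VI forms beaded filaments near cells, and the remaining types decorate fibrils, bridge basement membranes to their surroundings or span the plasma membrane. In the heart, fibroblasts make most fibrillar collagen, whereas type IV comes from several cell types.

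Collagen genes were higher in caAkt hearts in 21 of 42 cases and lower in 2, at an adjusted p under 0.05 (limma, Benjamini-Hochberg adjustment over all 18193 genes). Of all genes, 28.5% were called, 16.1% higher and 12.4% lower. The median log2 fold change, caAkt minus wild-type, was 0.31 over the collagens and -0.04 over all genes. A rise of at least 2-fold was called for 13 collagens, and for 2.48% of all genes (451). All 3 caAkt arrays lay above all 3 wild-type arrays for 21 collagens, the same 21 that were called higher, against 21.4% of all genes, and below them for 3 collagens, against 21.1% of all genes. In whole tissue, more cells of a type and more RNA per cell cannot be told apart. Among collagens outside the lowest 40% of genes by mean, the largest rises were those of the type VIII chain Col8a1 (5.60-fold) and the type I chain Col1a1 (4.97-fold). The fitted change of Col8a2 was larger (2.88 on the log2 scale), but its wild-type mean of 5.09 lay under the limit of that range (7.01) and is not shown to be above background. In all, 5 collagens were among the 100 genes with the largest rise. Of the 21 collagens called higher, 15 had more than 1 probe set, and in 13 of these every probe set was called higher, the exceptions being Col5a3 and Col12a1.

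The classes differed in their counts, which stand beside 16.1% of all genes called higher and 12.4% lower. Of the 11 fibrillar collagens, 8 rose and 1 fell, with a median log2 fold change of 1.22. Of the 6 type IV genes, 3 rose and 0 fell, with a median of 0.57, and of the 25 others 10 rose and 1 fell, with a median of 0.00 (-0.01 without Col15a1 and Col18a1, which also lie at basement membranes; their addition brings the type IV median to 0.67). The mean log2 value over the fibrillar genes was 9.53 to 9.68 on the caAkt arrays and 8.45 to 8.59 on the wild-type arrays. For type IV it was 9.91 to 10.03 in caAkt and 9.25 to 9.47 in wild-type. For the others it was 7.80 to 7.90 in caAkt and 7.34 to 7.42 in wild-type. The groups did not overlap in any class. Nor did they over all genes, whose mean was 7.778 to 7.784 in caAkt and 7.742 to 7.775 in wild-type. Dim genes, with a mean over all arrays under the limit of 7.01, were 4 of 11 fibrillar, 1 of 6 type IV and 11 of 25 other collagens. With the dim genes filtered out, the median log2 fold changes were 1.48 (fibrillar), 0.81 (type IV) and 0.67 (other). The median of 0.00 for the others thus depended on including their dim genes. The class values are descriptions, and no test between the 3 classes was made.

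**Figure D1:**
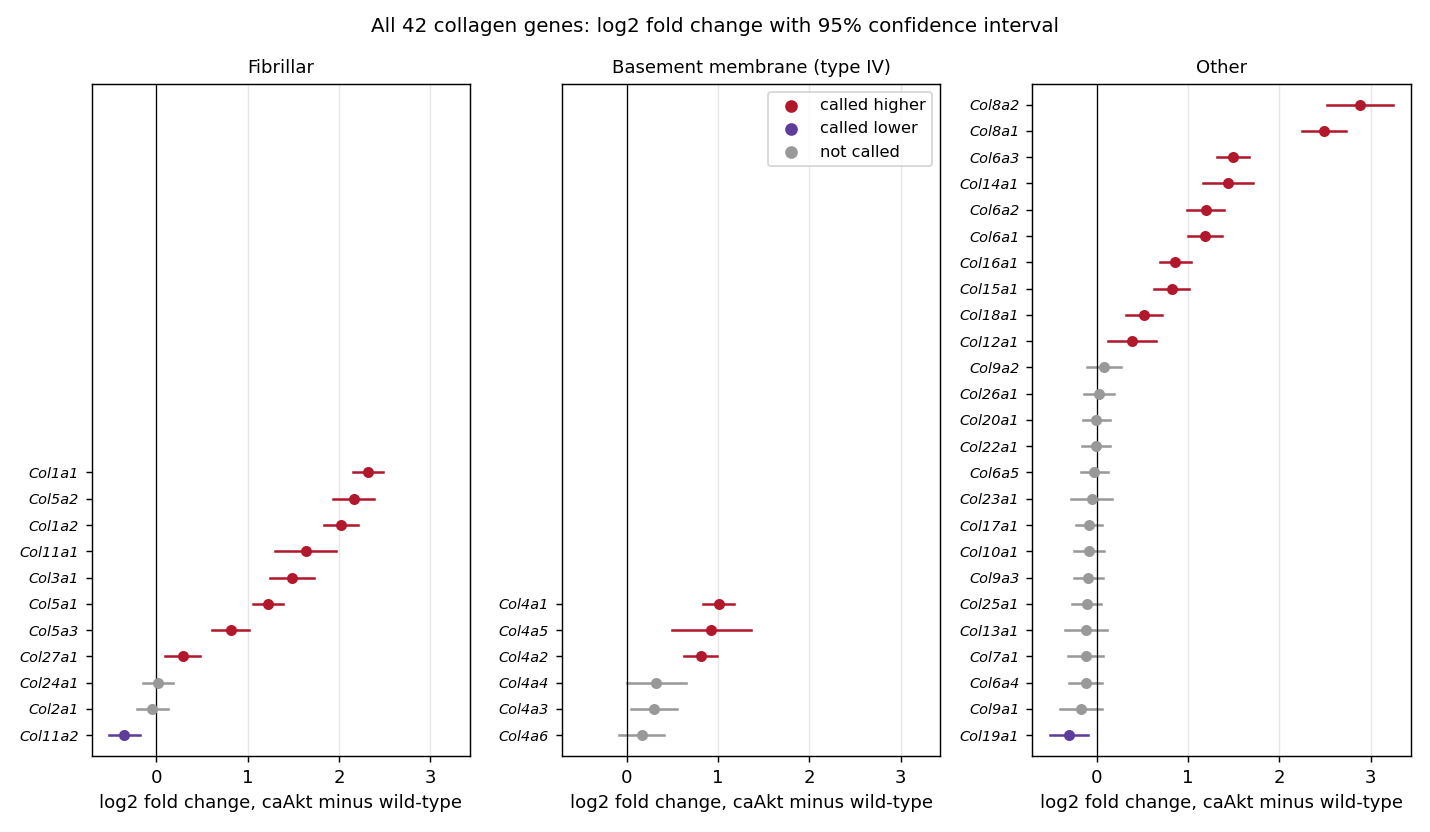
Log2 fold change (caAkt minus wild-type, horizontal axis) of all 42 collagen genes, 1 row per gene, in panels for the fibrillar, type IV and other collagens. Points are estimates over 3 caAkt and 3 wild-type arrays and lines their 95% confidence intervals. Called higher were 8 of 11 fibrillar genes, 3 of 6 type IV genes and 10 of 25 others, against 16.1% of all genes. The not called genes lay between -0.17 and 0.33.

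Among fibrillar collagens, Col1a1, Col5a2 and Col1a2 had the largest fold changes at the used probe sets. With means of probe sets, Col3a1 (1.80) stood above Col1a2 (1.74). Col1a1, the major chain of the most abundant collagen, had log2 values of 13.17, 13.05 and 13.18 in caAkt hearts, against 10.75, 10.88 and 10.83 in wild-type hearts. The groups lay over 2 log2 units apart, and the spread within each was small (SD 0.07 in both). The log2 fold change was 2.31 ± 0.07 (SE, adjusted p = 2.85e-07). Its partner chain Col1a2 had values of 13.50, 13.57 and 13.72 in caAkt and 11.60, 11.65 and 11.48 in wild-type, again with no overlap. It rose by 2.02 ± 0.08 (adjusted p = 8.23e-07), or 4.05-fold. A further probe set of Col1a1 gave 1.82, and those of Col1a2 gave 2.51 and 0.70, all called higher in the fit over all probe sets.

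Col3a1, the chain of type III collagen, which mixes with type I in the compliant fibrils of heart and vessel wall, stood at 14.46, 14.30 and 14.50 in caAkt hearts and at 13.12, 12.97 and 12.72 in wild-type hearts. Wild-type replicate 3 was the lowest of the 6 arrays. The log2 fold change was 1.48 ± 0.11 (adjusted p = 1.55e-05), or 2.80-fold, and a dimmer probe set gave 2.11 ± 0.15.

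The type V chains, which nucleate and thin type I fibrils, were all called higher. Col5a2 had 11.90, 11.69 and 11.98 in caAkt hearts, against 9.77, 9.78 and 9.54 in wild-type hearts, a rise of 2.16 ± 0.10 (adjusted p = 1.54e-06). Col5a1, present in most type V trimers, had 11.06, 11.09 and 11.10 in caAkt and 9.98, 9.85 and 9.77 in wild-type, a rise of 1.22 ± 0.07 (adjusted p = 6.53e-06). Its 3 probe sets agreed closely, at 1.22 to 1.27. Col5a3, a chain of more restricted expression, rose by 0.81 ± 0.09 (adjusted p = 0.000171) at the used probe set, whereas a dimmer probe set at 4.91 in caAkt and 4.83 in wild-type was not called. With the mean of both probe sets the rise was 0.45.

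Type XI collagen is the cartilage relative of type V. Col11a1 rose by 1.63 ± 0.15 (adjusted p = 5.62e-05), with values of 6.51, 6.20 and 6.77 in caAkt and 4.82, 5.09 and 4.68 in wild-type, and its other probe set gave 1.79. Its signal belonged to the lowest 40% of genes by mean (limit 7.01), as did that of Col11a2, which had 6.11, 6.23 and 6.21 in caAkt and 6.53, 6.63 and 6.44 in wild-type. Col11a2 fell by 0.35 ± 0.08 (adjusted p = 0.00705). The cartilage collagen Col2a1 (-0.05) and Col24a1 (0.02) were not called. Col27a1, a fibrillar chain of cartilage, rose by 0.29 ± 0.09 (adjusted p = 0.0321), by 0.60 at its dimmer probe set and by 0.45 with the mean of both; at the used probe set it was not called without caAkt replicate 2 or 3 or wild-type replicate 1 or 2 (adjusted p up to 0.113). Markers of cartilage (Acan, Sox9, Matn1, Chad and Cnmd) had 0 of 5 called, with a mean log2 value of 5.78 to 5.92 in caAkt and 5.88 to 6.01 in wild-type.

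The sequence before Col1a2 is shown because CCAAT boxes are a known feature of type I collagen promoters. The window, chr6:4505368-4505667 on the plus strand (RefSeq, GRCm38.p6), runs from 250 bases before the transcript start to 50 after it, and capitals mark CCAAT on either strand (ATTGG on the opposite strand).
Col1a2: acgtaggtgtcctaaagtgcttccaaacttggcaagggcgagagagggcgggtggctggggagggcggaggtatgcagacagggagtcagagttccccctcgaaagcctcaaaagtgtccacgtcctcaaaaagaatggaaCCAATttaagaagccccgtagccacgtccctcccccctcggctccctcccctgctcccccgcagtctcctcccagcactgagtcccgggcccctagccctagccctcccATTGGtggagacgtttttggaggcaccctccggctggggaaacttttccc
Counted from the first base of the annotated RefSeq transcript as 1, the matches begin at -109 and at 1. Where transcription starts in these hearts was not tested. Promoter windows, 36 in all, were found for 33 of the 42 collagens (Col1a1 was not among them). A collagen counted as positive if any of its windows held the motif. The percentages of all windows count each window singly, so the measures are not fully alike. CCAAT was present in 8 of 17 collagens called higher, 0 of 2 called lower and 5 of 14 not called, against 37.4% of all 32851 windows. The GC box GGGCGG, searched on both strands, was present in 13 of 17, 1 of 2 and 7 of 14, against 35.7% of all windows, and TATAAA in 1 of 17, 1 of 2 and 3 of 14, against 13.6%. No position is claimed to be bound.

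**Figure D2:**
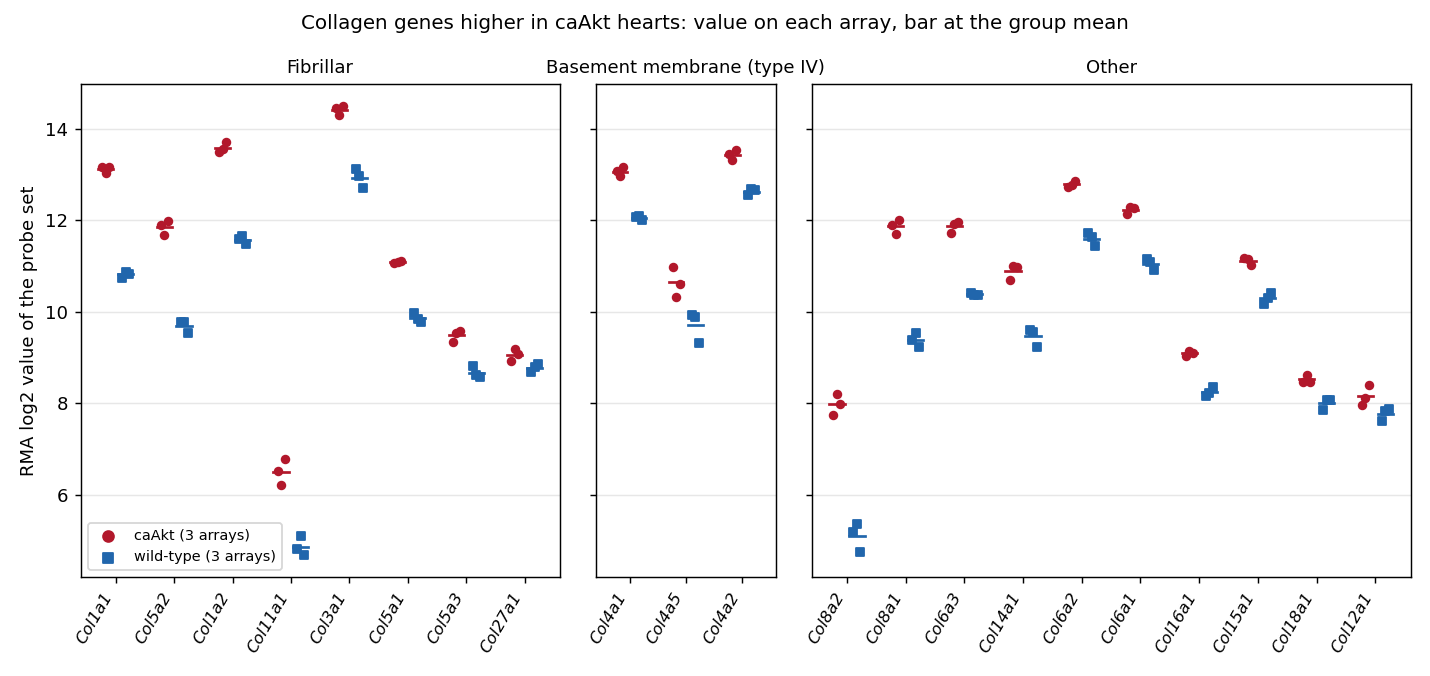
RMA log2 values (vertical axis) of the 21 collagen genes called higher, 1 point per array, circles for the 3 caAkt and squares for the 3 wild-type arrays, with a bar at each group mean. All caAkt points lie above all wild-type points of the same gene. Levels of different genes come from different probes and are not comparable with each other.

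Among the basement membrane collagens, Col4a1 and Col4a2, whose products form the trimer found in nearly all basement membranes, rose together. Col4a1 had 13.07, 12.96 and 13.16 in caAkt hearts, against 12.07, 12.10 and 12.01 in wild-type hearts, and Col4a2 had 13.45, 13.33 and 13.54 in caAkt hearts, against 12.55, 12.69 and 12.66 in wild-type hearts. Neither gene's groups overlapped. The log2 fold changes were 1.01 ± 0.07 (adjusted p = 1.79e-05) and 0.81 ± 0.08 (adjusted p = 8.02e-05). Col4a5, on the X chromosome and mutated in human Alport syndrome, rose by 0.93 ± 0.19 (adjusted p = 0.00592), with a wider spread: 10.99, 10.33 and 10.61 in caAkt and 9.92, 9.89 and 9.33 in wild-type. Its dimmer probe set gave 0.95 ± 0.10.

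The remaining type IV chains did not pass the test. Col4a3 and Col4a4, known for the kidney's filtering membrane, had log2 fold changes of 0.30 ± 0.11 (adjusted p = 0.0744) and 0.33 ± 0.14 (adjusted p = 0.123), with overlapping groups. Wild-type replicate 3 was the lowest array for both, at 6.46 and 7.79. The dimmest of the 3 Col4a4 probe sets, with means of 6.02 in caAkt and 5.67 in wild-type, was called higher (0.34 ± 0.07, adjusted p = 0.00788 over all probe sets), and the mean of the 3 was called too (0.35, adjusted p = 0.0270). Col4a6 had 7.10, 7.35 and 7.21 in caAkt and 6.99, 6.90 and 7.27 in wild-type, and was not called (0.17 ± 0.11, adjusted p = 0.292).

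Col4a1 and Col4a2 are transcribed away from each other from a shared region, shown here because both genes rose. The Col4a1 window is chr8:11312777-11313076 on the minus strand and the Col4a2 window chr8:11312555-11312854 on the plus strand (RefSeq, GRCm38.p6), each written in its own gene's direction. Capitals mark the 78 bases that both windows contain, as reverse complements.
Col4a1: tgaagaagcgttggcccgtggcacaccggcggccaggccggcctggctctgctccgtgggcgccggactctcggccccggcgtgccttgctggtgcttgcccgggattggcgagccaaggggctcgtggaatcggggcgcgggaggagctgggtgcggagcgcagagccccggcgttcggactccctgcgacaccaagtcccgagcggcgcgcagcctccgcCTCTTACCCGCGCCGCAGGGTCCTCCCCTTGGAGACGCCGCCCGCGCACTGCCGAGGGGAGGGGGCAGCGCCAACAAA
Col4a2: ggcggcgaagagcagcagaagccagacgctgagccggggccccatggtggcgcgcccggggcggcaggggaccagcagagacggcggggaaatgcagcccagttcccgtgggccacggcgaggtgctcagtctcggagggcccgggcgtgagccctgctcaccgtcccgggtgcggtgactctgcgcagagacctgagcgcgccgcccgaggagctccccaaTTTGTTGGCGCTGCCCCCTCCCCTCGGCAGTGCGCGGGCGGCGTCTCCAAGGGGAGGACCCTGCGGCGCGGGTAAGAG
No other pair of collagen windows overlapped. The RefSeq gene table placed 7 pairs of collagen genes next to each other among protein-coding genes. Both members were called higher in 3 pairs, namely Col4a1 with Col4a2 on chromosome 8, Col3a1 with Col5a2 on chromosome 1 and Col6a1 with Col6a2 on chromosome 10. Singly, 21 of 42 collagens were called higher and 2 lower, against 16.1% and 12.4% of all genes. The share of pairs called together among all neighbouring genes was not computed. In the pairs Col4a3 with Col4a4 and Col6a4 with Col6a5, neither was called. Col4a5 was called higher beside its neighbour Col4a6, which was not, and Col19a1 was called lower beside Col9a1, which was not.

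Of the other collagens, both chains of the short-chain type VIII, a component of vessel walls and of the membrane under the corneal endothelium, rose. Col8a1 had 11.89, 11.70 and 12.02 in caAkt hearts, against 9.38, 9.54 and 9.23 in wild-type hearts, a rise of 2.49 ± 0.11 (adjusted p = 9.33e-07), and its 3 probe sets gave 2.24 to 2.65. Col8a2 had 7.75, 8.20 and 7.98 in caAkt and 5.19, 5.35 and 4.74 in wild-type, a rise of 2.88 ± 0.16 (adjusted p = 4.04e-06). Averaged over the 6 arrays, Col8a2 was among the lowest 40% of genes. The third short-chain gene, Col10a1 of growth plate cartilage, was not called (-0.09 ± 0.07, adjusted p = 0.419).

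The Col8a1 window, chr16:57754688-57754987 on the minus strand (RefSeq, GRCm38.p6), is shown for the collagen with the largest rise among those measured by several probe sets. Capitals mark GGGCGG on the opposite strand (CCGCCC).
Col8a1: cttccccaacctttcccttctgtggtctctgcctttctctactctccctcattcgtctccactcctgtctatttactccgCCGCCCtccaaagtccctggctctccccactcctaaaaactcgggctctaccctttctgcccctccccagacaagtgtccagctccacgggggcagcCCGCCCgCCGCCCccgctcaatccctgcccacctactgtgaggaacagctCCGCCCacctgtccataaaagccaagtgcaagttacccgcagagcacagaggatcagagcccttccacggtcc
It held neither CCAAT nor TATAAA.

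The chains of type VI collagen, which makes beaded filaments between cells and the surrounding fibrils, split by gene. Col6a1 had 12.14, 12.29 and 12.28 in caAkt and 11.16, 11.08 and 10.92 in wild-type, and Col6a2 had 12.73, 12.78 and 12.87 in caAkt and 11.73, 11.63 and 11.43 in wild-type. They rose by 1.18 ± 0.08 and 1.19 ± 0.09. Col6a3, the long chain of the same trimer, had 11.73, 11.93 and 11.96 in caAkt and 10.41, 10.37 and 10.37 in wild-type, and rose by 1.49 ± 0.08 (adjusted p = 2.97e-06). The related Col6a4 (-0.12 ± 0.08) and Col6a5 (-0.03 ± 0.07) were dim and not called.

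The fibril-associated collagens (FACIT), which coat fibrils without forming them, were mixed, with 3 of 9 higher and 1 lower. Of all genes, 16.1% were called higher and 12.4% lower. Col14a1 had 10.70, 11.01 and 10.99 in caAkt and 9.61, 9.55 and 9.22 in wild-type, and rose by 1.44 ± 0.12 (adjusted p = 3.45e-05). Col16a1 rose by 0.86 ± 0.08 (adjusted p = 4.51e-05). Col12a1 depended on the probe set: the brightest gave 0.39 ± 0.12 (adjusted p = 0.0333), a second one, at 7.72 ± 0.29 in caAkt and 5.74 ± 0.14 in wild-type (SD, n = 3 each), gave 1.98 ± 0.14, and the dimmest ones gave -0.21 (means of 4.35 in caAkt and 4.56 in wild-type) and -0.06 (4.01 in caAkt and 4.07 in wild-type) and were not called. At the brightest probe set Col12a1 was not called without caAkt replicate 2 or 3 or wild-type replicate 1 or 2 (adjusted p up to 0.109). Col19a1 had 4.73, 4.76 and 4.88 in caAkt and 5.08, 5.27 and 4.94 in wild-type, and fell by 0.30 ± 0.09 (adjusted p = 0.0380). The groups did not overlap. When arrays were left out in turn, the call was kept in 1 case, that of wild-type replicate 3, and lost in the other 5 (adjusted p up to 0.134). Its dimmer probe sets gave -0.27 and -0.11, and none of the 3 was called in the fit over all probe sets. The cartilage collagens Col9a1, Col9a2 and Col9a3 had log2 fold changes of -0.17 to 0.08, and Col20a1 and Col22a1 of 0.00 and -0.01. None of these 5 was called, although a dim probe set of Col22a1 was (0.30 ± 0.09, adjusted p = 0.0408 over all probe sets).

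Both multiplexins, which lie at the outer face of basement membranes and carry sugar side chains, were higher. Col15a1, of muscle and capillary basement membranes, had 11.18, 11.15 and 11.02 in caAkt hearts, against 10.17, 10.31 and 10.42 in wild-type hearts, and rose by 0.82 ± 0.08 (adjusted p = 0.000118). Col18a1, the source of endostatin, had 8.47, 8.63 and 8.46 in caAkt and 7.85, 8.07 and 8.08 in wild-type, and rose by 0.52 ± 0.09 (adjusted p = 0.00185), with 0.59 at its other probe set. The 4 transmembrane collagens Col13a1, Col17a1, Col23a1 and Col25a1 had log2 fold changes of -0.12 to -0.06 and were not called. Col7a1 of the anchoring fibrils of skin (-0.12) and Col26a1 (0.02) were not called either. Of the 19 collagens that did not pass the test in either direction, 12 belonged to the lowest 40% of genes by mean.

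Partner chains of the same collagen type were compared for 9 pairs by the difference between their log2 fold changes, with an exact permutation test over the arrays (two-sided), for which 0.1 is the smallest p this design allows. Col6a1 and Col6a2, built into the trimer in equal number, differed by -0.01 (exact p = 0.8), and Col4a3 and Col4a4 by -0.02 (exact p = 0.7). Col4a1 exceeded Col4a2 by 0.20 (exact p = 0.1). Col5a1 changed less than Col5a2 by 0.94 (difference -0.94, exact p = 0.1), and Col11a1, which rose, lay 1.98 above Col11a2, which fell (exact p = 0.1). Col8a1 minus Col8a2 was -0.40 (exact p = 0.1), and -0.20 without caAkt replicate 2. Col4a5 minus Col4a6 was 0.76 (exact p = 0.2), and 0.46 without wild-type replicate 3. Col9a1 minus Col9a2 was -0.24 (exact p = 0.2), -0.08 without caAkt replicate 1 and -0.37 without caAkt replicate 3. Col1a1 exceeded Col1a2 by 0.29 (exact p = 0.1), but this turned to -0.19 with only plain probe sets, where another probe set represents Col1a2. Adjusted over the 9 pairs, no p was under 0.18. Each chain was read by its own probes, and whether these respond equally was not tested. For Col11a1 and Col11a2 the directions were opposite, and both calls were kept in all 14 settings in which they were measured.

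**Figure D3:**
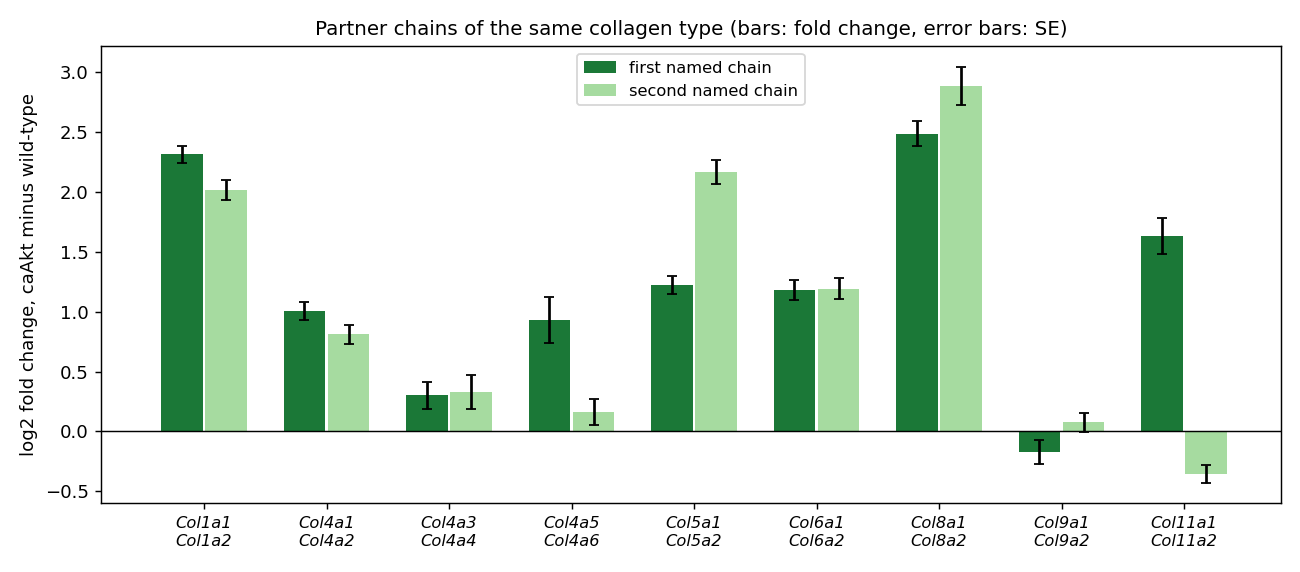
Log2 fold change (caAkt minus wild-type, vertical axis) of 9 pairs of partner chains, with the first named chain in dark and the second in light green; error bars are SE from 3 caAkt and 3 wild-type arrays. The Col6a1 and Col6a2 bars are level, Col5a2 stands above Col5a1, and Col11a1 and Col11a2 point in opposite directions.

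Genes that build collagen were mostly higher too. Of 38 listed genes of synthesis and processing 34 were measured, and 27 of them rose and 3 fell, with a median log2 fold change of 0.59 (all genes -0.04; 16.1% of all genes higher and 12.4% lower). Among the enzymes that hydroxylate proline and lysine, 10 of 12 rose. P3h2, a prolyl 3-hydroxylase that acts on type IV collagen, had 9.36, 9.66 and 9.64 in caAkt and 7.42, 7.62 and 7.36 in wild-type, and rose by 2.09 ± 0.10 (adjusted p = 2.14e-06), or 4.26-fold. Plod2, which hydroxylates lysines of the telopeptides used for crosslinks, rose by 1.22 ± 0.07, P4ha1, a catalytic subunit of prolyl 4-hydroxylase, by 1.16 ± 0.09, P3h3 by 0.92 ± 0.09, the partner subunit P4hb by 0.72 ± 0.08 and Crtap by 0.60 ± 0.07. P3h4, a non-enzymatic partner of P3h3, fell by 0.47 ± 0.08 (adjusted p = 0.00270).

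In folding, glycosylation and secretion, 10 of 12 measured genes rose and 1 fell, against 16.1% and 12.4% of all genes. Sparc, a collagen-binding matricellular protein, rose by 1.10 ± 0.08, the transcription factors Creb3l1 and Creb3l2, which control secretory pathway genes, by 0.85 ± 0.08 and 0.84 ± 0.09, and Tmem38b, an ion channel of the endoplasmic reticulum, by 0.83 ± 0.07. The isomerases Ppib and Fkbp14 rose by 0.61 ± 0.07 and 0.62 ± 0.10, and Serpinh1, the collagen chaperone HSP47, by 0.70 ± 0.12 (adjusted p = 0.00202). The galactosyltransferase Colgalt2 fell by 0.26 ± 0.07 (adjusted p = 0.0205).

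The lysyl oxidases, which crosslink collagen, rose in all 4 measured cases. The counts here stand beside 16.1% of all genes called higher and 12.4% lower. Lox had 9.28, 8.63 and 9.42 in caAkt and 6.53, 6.91 and 6.47 in wild-type, a rise of 2.47 ± 0.20 (adjusted p = 2.50e-05), or 5.56-fold. Loxl3 rose by 1.58 ± 0.09, Loxl1 by 1.56 ± 0.09 and Loxl4 by 0.55 ± 0.08. Of the genes that remove propeptides, 3 of 6 rose and 1 fell, with a list median of 0.19. These were the protease Bmp1 (0.32 ± 0.07), its enhancers Pcolce (1.54 ± 0.15) and Pcolce2 (0.57 ± 0.17), and Adamts3, a protease of procollagen amino ends, which fell by 0.42 ± 0.09 (adjusted p = 0.00570). Pcolce2 had a low caAkt array, replicate 1 at 9.36, against 10.11 and 9.99 on the others.

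Of 13 genes for proteins that regulate fibrils, 9 rose and 0 fell, with a median of 0.90, and Ogn, Tnxb, Optc and Kera were not called. Of all genes, 16.1% were called higher and 12.4% lower, with a median of -0.04. The receptor counts below stand beside the same shares. The proteoglycan Fmod, which guides early fibril assembly, rose most, by 2.56 ± 0.09 (adjusted p = 5.26e-07), with fibronectin (Fn1, 1.77 ± 0.09), Bgn (1.60 ± 0.10), Thbs2 (1.12 ± 0.10), Dcn (0.74 ± 0.10) and Prelp (0.70 ± 0.08) among those with the smallest p. Among receptors, 5 of 9 rose and 0 fell, with a median of 0.42. Mrc2, an endocytic receptor that clears collagen, rose by 1.61 ± 0.10 (adjusted p = 9.04e-06), the integrin subunits Itga1 and Itgb1 by 0.93 ± 0.10 and 0.58 ± 0.08, the kinase receptor Ddr2 by 0.49 ± 0.11 and the inhibitory immune receptor Lair1 by 0.42 ± 0.08. Ddr1 (0.23 ± 0.09, adjusted p = 0.0972) was not called.

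**Figure D4:**
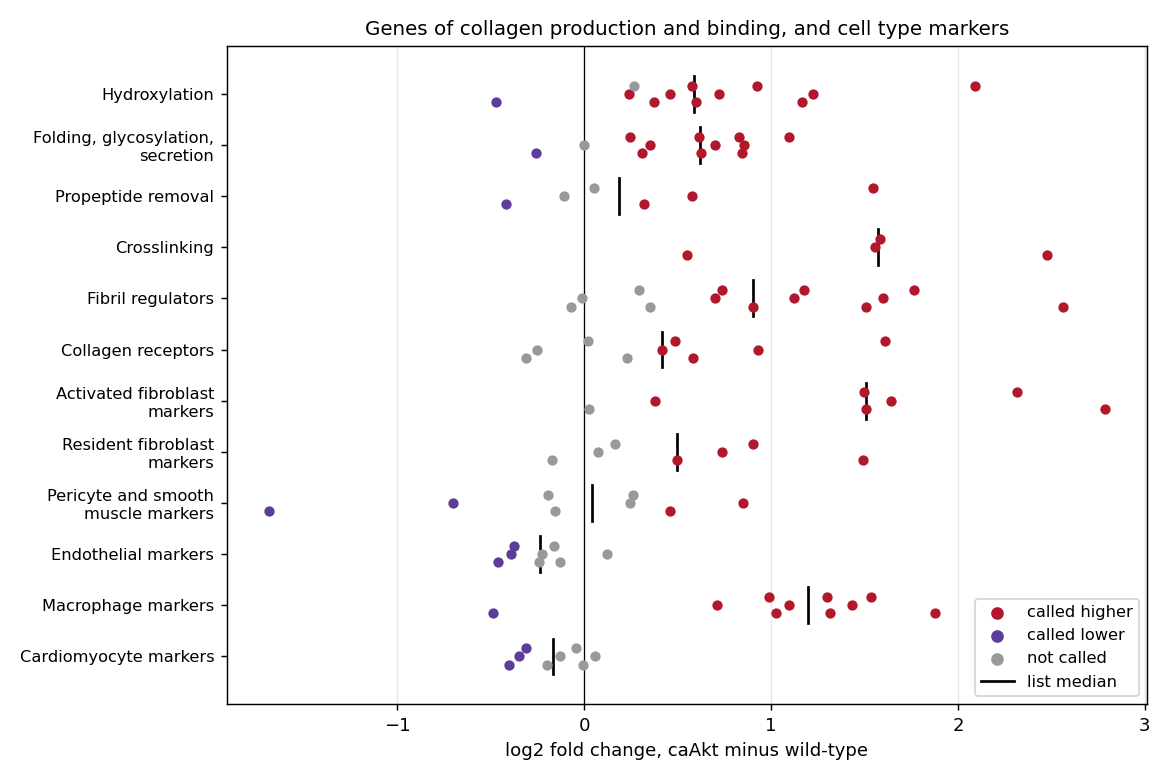
Log2 fold change (caAkt minus wild-type, horizontal axis) of each measured gene of the collagen production, fibril and receptor lists and of cell type marker lists, 1 point per gene, with a black line at each list's median. The crosslinking and activated fibroblast lists have medians of 1.57 and 1.51, and the endothelial and cardiomyocyte lists of -0.23 and -0.17.

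Marker lists of cell types differed in direction, and their counts stand beside 16.1% of all genes called higher and 12.4% lower. Markers of activated fibroblasts rose in 6 of 7 cases, with a mean log2 value of 10.34 to 10.74 in caAkt and 9.03 to 9.15 in wild-type. Thbs4 rose by 2.79 ± 0.11 and Postn by 2.31 ± 0.13, whereas Acta2 (0.03 ± 0.21), the smooth muscle actin of myofibroblasts, was not called. Acta2 had 12.14, 12.94 and 13.13 in caAkt and 12.75, 12.78 and 12.60 in wild-type. Its low array, caAkt replicate 1, was also the lowest of the caAkt arrays for Gsn (13.54, against 14.08 and 13.99) and Dpt (11.24, against 11.76 and 11.67). Markers of resident fibroblasts rose in 4 of 7 cases (11.59 to 11.92 in caAkt, 11.08 to 11.34 in wild-type), namely Pdgfrl (1.49 ± 0.09), Lum (0.90 ± 0.14), Dcn (0.74 ± 0.10) and Pdgfra (0.49 ± 0.13), while Gsn (-0.17 ± 0.14), Tcf21 (0.07 ± 0.09) and Dpt (0.17 ± 0.15) were not called. Dcn, Lum and Comp stand in these marker lists and among the fibril regulators, so the lists are not independent.

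Endothelial markers fell in 3 of 8 cases and rose in 0 (9.91 to 10.04 in caAkt, 10.17 to 10.26 in wild-type), with Kdr at -0.46, Tek at -0.39 and Emcn at -0.38. Pericyte and smooth muscle markers were 2 higher and 2 lower of 8 (9.86 to 9.99 in caAkt, 9.97 to 10.10 in wild-type): Cspg4 (0.85) and Tagln (0.46) rose, and Abcc9 (-1.69) and Kcnj8 (-0.70) fell. Macrophage markers rose in 9 of 10 cases and fell in 1 (9.73 to 10.03 in caAkt, 8.73 to 8.90 in wild-type), with Cd68 at 1.88 and C1qa at 1.30 and, as the one that fell, Cd163 at -0.49. Cardiomyocyte markers were high on all arrays (14.45 to 14.54 in caAkt, 14.59 to 14.72 in wild-type), with 3 of 8 lower, namely Ryr2 (-0.41), Tnni3 (-0.35) and Myl3 (-0.31). Lymphocyte and Schwann cell markers had 0 of 6 and 0 of 2 measured called, epicardial markers fell in 2 of 4 cases (Upk3b at -0.45 and Wt1 at -0.27) and adipocyte markers in 2 of 3 (Adipoq at -1.73 and Cidec at -0.30). The part of these cell types in the collagen values was not tested.

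Atrial markers (Sln, Myl7 and Myl4) varied between arrays of the same genotype, with a mean log2 value of 7.85 to 10.04 in caAkt and 8.20 to 11.21 in wild-type, and 0 of 3 were called. Replicate 2 was the lowest array in caAkt and in wild-type. The collagen mean over all 42 genes was 8.57 to 8.66 in caAkt and 7.90 to 8.02 in wild-type. Array medians were 6.77 to 6.80, and Akt1, checked against the genotype labels, stood at 15.08 to 15.16 in caAkt and 9.79 to 10.18 in wild-type.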

How the data were processed

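The deposited log2 values were made by the authors with RMA in the R package affy, per the submitters' processing notes; versions are not given in the sources used here. RMA corrects background, equalises array distributions and summarises probes, so a shift common to nearly every gene is removed. The table held 45101 probe sets, of which 34945 had a single gene symbol in the platform annotation, and each gene took its probe set with the highest mean. Genotypes were tested by limma (version 3.58.1, run in R version 4.3.3, functions lmFit and eBayes, two-sided, genotype as the only term, no filter), with Benjamini-Hochberg adjustment over 18193 genes and a threshold of 0.05. Errors are moderated SEs for fold changes and SDs for levels. With 3 arrays per group, precision is limited. The members, classes and gene lists were chosen with earlier results of these data known. Text names every collagen called, the chains of heart matrix types, up to 6 genes with the smallest p per further list, and list members where 5 or fewer moved in a direction; other genes, marker examples included, were chosen after their values were seen. Promoter sequences and gene order came from RefSeq tables (GRCm38.p6). All 42 genes were found by symbol in the gene table, and 33 had a promoter window. Alternatives were moderation with trend and robust settings, means of probe sets, plain probe sets (those lacking the suffixes _x, _s and _a), a filter on the lowest 40% of genes, a block for replicate number, median centring, repeated quantile normalization, weights per array, a stricter threshold of 0.01, all probe sets as rows, and leaving out each array. The partner chain differences were recomputed under these settings after the data were seen. On simulated data for caAkt against wild-type, with 18193 genes, limma recovered 39 of 67 genes changed by 0.5 (log2). It recovered 65 of 67 changed by 1 and 65 of 66 changed by 2, with 7 false calls among unchanged genes. Far fewer genes were changed there than the 5183 called in the data, so this recovery need not carry over to the real fit.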

Additional observations from a re-analysis of the deposited data

How the results depend on the processing

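Of the 23 collagens called, 20 kept their call under every alternative in which they were measured, and none of the 23 changed direction; Col27a1, Col12a1 and Col19a1 lost it in some. Collagens called higher numbered 19 to 23. Those called lower were 1 instead of 2 with repeated quantile normalization, with the replicate number as a block and at a threshold of 0.01, 0 with the filter on dim genes, which removes both, and 1 to 2 without single arrays. The threshold of 0.01 also left 3255 of 5183 genes called. The block otherwise changed no collagen call. Deviations of arrays with the same number correlated at 0.27, 0.03 and -0.12. The labels state no pairing, and with so few arrays these correlations cannot exclude one. The fibrillar median was 1.43 with plain probe sets. With the filter, which drops all 16 dim collagens (2 called higher, 2 lower and 12 not called), the medians were 1.48 (fibrillar), 0.81 (type IV) and 0.67 (other). Among partner chains, Col4a3 minus Col4a4 was -0.25 with means of probe sets. Of the synthesis and processing genes 22 to 28 were higher and 2 to 3 lower, of the receptors 4 to 6 higher and 0 to 2 lower, and of the fibril regulators 9 to 10 higher. Dim collagens are limited by signal over background.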
